A study of Mus musculus with 36 samples.

Results

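The genes followed here are 10 regulators and products of endoderm, *Sox17*, *Sox7*, *Foxa1*, *Foxa2*, *Foxa3*, *Hhex*, *Cer1*, *Dab2*, *Afp* and *Ttr*. They were chosen by name, with no measured value in the rule, out of 50600 genes listed for the sorted Day 3 cells and 29267 genes listed for the other libraries, and all 10 are in both lists. Definitive endoderm arises from the primitive streak under Nodal signalling, whereas the visceral and parietal endoderm that surround the early embryo descend from the primitive endoderm of the blastocyst. FOXA proteins open closed chromatin, SOX17 and SOX7 are SRY-box factors of both endoderm and vessel walls, and HHEX marks the anterior visceral endoderm and the early liver bud. CER1 is a secreted antagonist of Nodal, BMP and Wnt ligands, DAB2 is an endocytic adaptor of extraembryonic endoderm, and AFP and TTR are secreted by visceral endoderm and fetal liver.

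The libraries come from mouse epiblast stem cells (EpiSCs), cultured cells in the primed state, and from their conversion towards the naïve state by BMP4 (BiPNT). RNA-seq was analysed in 11 libraries of 6 groups and 3 experiments, and differences are tested within an experiment only. The 3 EpiSC libraries are from cells kept in N2B27 with Activin A, bFGF and XAV939. The 2 BV+SC+ libraries are from Day 6 cells that carry *Blimp1*-mVenus and *Stella*-ECFP reporters and were sorted for both. By their labels these cells had been through iCD1 medium with BMP4, the DOT1L inhibitor EPZ5676 and the EZH2 inhibitor EPZ6438 for 3 days, and through N2B27 with 2i and vitamin C for another 3 days. The labels also name 2iJi for BV+SC+ replicate 1 and GK15 for replicate 2, so medium and replicate cannot be told apart. From Day 3 of BiPNT, in Stage 1 medium, there are 2 libraries of cells sorted as *c-Kit*+ and 2 of cells sorted as *c-Kit*-. For unsorted Day 3 cells there is 1 library with the DOT1L inhibitor SGC0946 (DOT1Li) and 1 without it, whose labels share the protocol text of the BV+SC+ cells.

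Expected counts are the reads RSEM assigned to a gene, and TPM is that number corrected for transcript length and depth. The libraries hold 2444211 to 3070115 expected counts in EpiSCs, 14778809 and 18099059 in BV+SC+ cells, 1726038 and 1841442 when sorted as *c-Kit*+, 1798944 and 1826460 when sorted as *c-Kit*-, 4776143 with DOT1Li and 4577685 without. Where no library of a group had more than 3 expected counts of a gene, that gene is called at the floor there. Scaled to library size (CPM), 3 counts are 0.977 to 1.23 in EpiSCs, 0.166 and 0.203 in BV+SC+ cells, 1.63 to 1.74 in the sorted cells, 0.628 with DOT1Li and 0.655 without. These floors, and the intervals given below, cover counting error only. Summed TPM of 7 germ cell markers was 1796 and 1864 in BV+SC+ cells against 7.62 to 10.3 in EpiSCs. That list includes *Prdm1* and *Dppa3*, the genes of the sorted reporters, and *Dppa3* made 1162 and 1202 of the TPM. *Kit*, the marker of the Day 3 sort, was at 99.6 and 96.0 TPM in *c-Kit*+ cells against 4.81 and 3.24 in *c-Kit*- cells. Summed TPM of 12 trophoblast markers, a cell type the labels do not name, was 7258 and 6601 in *c-Kit*- cells against 1730 and 1477 in *c-Kit*+ cells.

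Endoderm genes were low in these libraries, and at least 5 of the 10 were at the floor in each group. In EpiSCs 8 of the 10 were at the floor, all but *Hhex* and *Dab2*. In BV+SC+ cells 5 were at the floor (*Sox17*, *Foxa1*, *Foxa2*, *Cer1* and *Afp*), and in each sorted population 5 were (*Sox7*, *Foxa3*, *Cer1*, *Afp* and *Ttr*). With DOT1Li 7 were at the floor, and without it 6 were, the difference being *Foxa1* at 2 and 4 counts. *Cer1* and *Afp* were at the floor in all 6 groups. *Hhex* and *Dab2* were in none, and they had at least 1 count in each of the 11 libraries. The highest level of any member was 26.8 TPM, that of *Sox17* in *c-Kit*- replicate 2. Summed over the 10 genes, TPM was 6.31 to 7.86 in EpiSCs, 14.1 and 11.9 in BV+SC+ cells, 27.7 and 43.2 in cells sorted as *c-Kit*-, 22.3 and 12.96 in those sorted as *c-Kit*+, 24.9 with DOT1Li and 15.9 without.

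**Figure D1:**
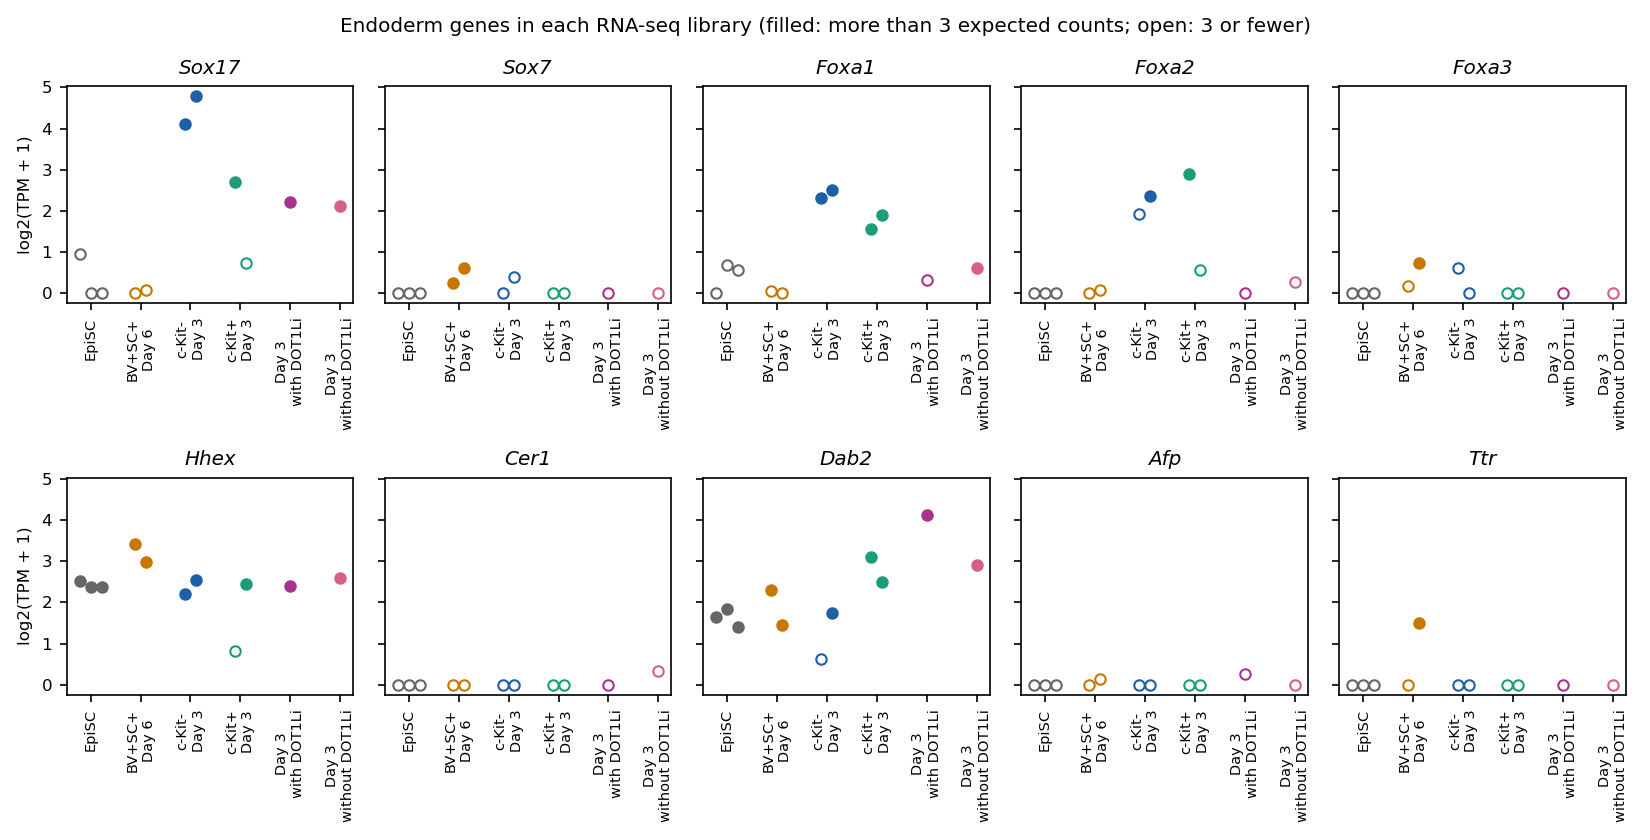
Level of each endoderm gene as log2(TPM + 1) on the vertical axis, with 1 point per library and the 6 groups along the horizontal axis; filled points have more than 3 expected counts and open points 3 or fewer. *Sox17* is highest in the *c-Kit*- libraries (16.3 and 26.8 TPM), *Hhex* and *Dab2* have counts in every library, and *Cer1* and *Afp* have open points only.

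In the paper, Day 3 cells were sorted to test whether *c-Kit* may mark the branch towards the naïve state, and the sorted populations were compared by RNA-seq. The paper reports pluripotency genes in *c-Kit*+ cells and trophoblast markers as high in *c-Kit*- cells. Of the endoderm genes, *Sox17* was lower and *Dab2* was higher in *c-Kit*+ cells, and the remaining 8 were not called. A gene was called at an adjusted p under 0.05 in edgeR's quasi-likelihood test with a fold change over 2. Only 3 of the 10 members had enough counts to be tested. Of these 1 was called lower and 1 higher, beside 12.9% lower and 9.98% higher of the 11018 genes tested. Over all members that is 1 of 10 in each direction.

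*Sox17*, a determinant of definitive and extraembryonic endoderm, had 22 and 39 expected counts in *c-Kit*- cells, against 6 and 1 in *c-Kit*+ cells. Its TPM was 16.3 and 26.8 in *c-Kit*- cells, against 5.56 and 0.66 in *c-Kit*+ cells. Both *c-Kit*- libraries lie above both *c-Kit*+ libraries on either scale, and the *c-Kit*+ replicates differ widely from each other at these low counts. By edgeR the log2 fold change was -3.01, with a standard error of 0.655 and an adjusted p of 0.00531. Leaving out any 1 library gave -4.77 to -2.25. The lower end is the fit without *c-Kit*+ replicate 1, which leaves a library with 1 count. *Sox17* overlaps *Gm37587*, an annotated gene on the opposite strand that holds 14.1% of its 75-base stretches. Whether the counting used strand is not given in the sources used here, so reads from the shared stretches cannot be told apart. In these bulk libraries, fewer cells with *Sox17* and less *Sox17* RNA per cell cannot be told apart either.

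*Foxa1* was the only FOXA gene tested. It had 12 and 14 expected counts (3.97 and 4.70 TPM) in *c-Kit*- cells, against 6 and 9 (1.97 and 2.74 TPM) in *c-Kit*+ cells. The populations do not overlap, and yet the difference did not pass the test, at -0.72 on the log2 scale with a standard error of 0.492 and an edgeR adjusted p of 0.267. *Foxa2*, which with *Foxa1* specifies foregut endoderm, had 2 and 8 counts in *c-Kit*- cells, against 5 and 1 in *c-Kit*+ cells. Its libraries overlap, and the ratio of pooled CPM, 0.610 with an exact 95% counting interval from 0.182 to 1.85, includes no change. TPM of *Foxa2* was 2.79 and 4.14 in *c-Kit*- cells, against 6.48 and 0.48 in *c-Kit*+ cells. *Foxa3*, a factor of hindgut and liver, had 1 count among the 4 libraries, in *c-Kit*- replicate 1.

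*Dab2* went the other way. Its expected counts were 1 and 8 (0.53 and 2.37 TPM) in *c-Kit*- cells, against 21 and 14 (7.58 and 4.67 TPM) in *c-Kit*+ cells. The populations do not overlap, and edgeR gave a log2 fold change of 1.99 with a standard error of 0.691 and an adjusted p of 0.0431. The call rests on few counts and was lost in 3 of the 4 fits that left out 1 library. The log2 fold change was 1.15 without *c-Kit*- replicate 1 (edgeR adjusted p = 0.193), 1.60 without *c-Kit*+ replicate 1 (0.264 by the same adjustment), 2.26 without *c-Kit*+ replicate 2 (0.0900) and 4.02 without *c-Kit*- replicate 2 (0.00182). DESeq2 gave 2.01 with an adjusted p of 0.215.

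*Hhex* had 6 and 8 counts in *c-Kit*- cells, against 1 and 8 in *c-Kit*+ cells, and its TPM was 3.59 and 4.85 against 0.75 and 4.41. The populations overlap, and a low *c-Kit*+ replicate 1 makes the whole difference in means. The pooled CPM ratio was 0.653, with a 95% counting interval from 0.249 to 1.62. *Sox7* had 1 count among these libraries, in *c-Kit*- replicate 2, and *Cer1*, *Afp* and *Ttr* had none, which allows at most 3 counts, or 1.74 CPM, in the shallowest of them.

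Other genes of endoderm development did not share a direction between these populations. The median log2 fold change over all genes tested was 0.03. Of 11 endoderm regulators 5 were tested and 3 were higher in *c-Kit*+ cells (*Eomes*, *Foxh1* and *Nodal*), with none lower and a median of 1.82. *Nodal*, the ligand upstream of definitive endoderm, had 73 and 98 counts in *c-Kit*+ cells, against 9 and 6 in *c-Kit*- cells. *Gata6*, a driver of primitive endoderm, had 8 and 14 counts in *c-Kit*+ cells, against 0 and 2 in *c-Kit*- cells, 11.2 times the CPM with a 95% counting interval from 2.75 to 98.1. *Gata4* had at most 2 counts in each sorted library, and *Hnf4a* had none. Of 7 anterior visceral endoderm genes 4 were tested, with *Otx2* and *Lefty1* higher, *Dkk1* and *Sfrp1* lower, and a median of 1.68. Several of these genes also had counts in EpiSCs, where 8 of the 10 endoderm genes were at the floor. Mean TPM in EpiSCs was 124 for *Foxh1*, 67.0 for *Nodal*, 505 for *Lefty1*, 96.2 for *Otx2* and 6.18 for *Eomes*. Their levels are thus not specific to endoderm in these libraries. Of 19 visceral endoderm products 3 were tested, with *Apoe* higher, *Lrp2* and *Cited1* lower, and a median of -2.10. Of 9 gut and organ genes 2 were tested and both were higher (*Trh* and *Cxcr4*), with a median of 5.04, or 2.73 with *Trh*, which had no count in *c-Kit*- cells, at its lower bound.

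Most of the tested genes of parietal endoderm, trophoblast and fibroblasts moved with *Sox17*. Of 12 parietal endoderm genes 9 were tested, and 6 were lower in *c-Kit*+ cells and 1 was higher, with a median of -1.31. Their summed TPM was 1321 and 1199 in *c-Kit*- cells, against 553 and 494 in *c-Kit*+ cells, *Sparc* being the most abundant in all 4 libraries. *Srgn* and *Thbd* were at 0 in both *c-Kit*- libraries, and *Pdgfra*, which parietal endoderm shares with mesenchyme, had 19 and 18 counts there and 3 in each *c-Kit*+ library. Of 12 trophoblast markers 8 were lower in *c-Kit*+ cells and 1 was higher among 11 tested, with a median of -2.22 and *Peg10* the most abundant in each library. The 1 higher was *Cdx2*, at 51.46 and 55.66 TPM in *c-Kit*+ cells, against 26.45 and 14.36 in *c-Kit*- cells. Of 8 fibroblast markers 3 were tested and all 3 were lower (median -1.58), with summed TPM of 162 and 126 in *c-Kit*- cells, against 41.3 and 42.2 in *c-Kit*+ cells. *Dcn* was at 0 in both *c-Kit*- libraries, and the most abundant of the list was *Col1a1* in replicate 1 of each population and *Col1a2* in replicate 2.

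*Sox17* is also a gene of arterial endothelium. Summed TPM of 9 endothelial markers was 14.1 and 8.82 in *c-Kit*- cells, against 29.3 and 19.9 in *c-Kit*+ cells, a sum carried mostly by *Pecam1* and *Lmo2*. The 2 endothelial markers tested, *Pecam1* and *Lmo2*, were both higher in *c-Kit*+ cells, with a median of 2.15. *Cdh5* and *Kdr*, which were not tested, ran the way of *Sox17*. *Cdh5* had 19 and 7 counts in *c-Kit*- cells, against 3 and 0 in *c-Kit*+ cells, and *Kdr* had 5 and 8, against 0 and 3. Counts of *Tie1* and *Tal1* were at most 2, whereas *Emcn* and *Erg* were at 0 in all 4 libraries and *Tek* had at most 1 count. *Sox18*, the third SRY-box gene of the same subgroup, had 2 and 0 counts in *c-Kit*- cells, against none in *c-Kit*+ cells. Of 6 primed epiblast markers 4 were tested, 2 higher and 1 lower in *c-Kit*+ cells (median 2.22), and of 7 germ cell markers 5 were tested and 4 were higher (median 5.28, or 4.77 with lower bounds). Those 4 include *Kit*, the marker of the sort. The share of mitochondrial genes also differed, at 2.07% and 3.04% in *c-Kit*- libraries, against 3.71% and 4.09% in *c-Kit*+ libraries. The part that these cell types, or what sets this share, have in the level of *Sox17* or *Dab2* was not tested.

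Day 6 BV+SC+ cells, germ cell-like cells by their reporters, were compared with EpiSCs. None of the 10 endoderm genes was called in either direction by edgeR, beside 16.8% higher and 17.2% lower of the 11792 genes tested, and among the genes that passed the filter none was called at an unadjusted p under 0.05 with the same fold change. DESeq2 called none either. Only *Hhex* and *Dab2* had the counts to be tested. Without the filter on low counts 9 of the 10 could be fitted and none was called, *Hhex* and *Sox7* coming nearest with edgeR adjusted p of 0.0702 and 0.0771 (0.0293 and 0.0326 unadjusted). The EpiSC libraries are much shallower than the BV+SC+ libraries, and this sets what can be seen for the rest.

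*Hhex* had 13, 11 and 9 expected counts in EpiSCs (4.77, 4.20 and 4.17 TPM) and 136 and 116 in BV+SC+ cells (9.76 and 6.93 TPM). Every BV+SC+ library lies above every EpiSC library. The difference of 0.99 on the log2 scale, with a standard error of 0.361 and an edgeR adjusted p of 0.0458, passed the p threshold and fell just short of 2-fold. Without BV+SC+ replicate 2 it was 1.20 and passed both (edgeR adjusted p = 0.0112). The p threshold was missed without BV+SC+ replicate 1 (0.75, edgeR adjusted p = 0.0957) and without EpiSC replicate 1, 2 or 3 (1.07, 0.96 and 0.96, edgeR adjusted p = 0.104, 0.130 and 0.138). It was also missed with the replicate number as a block (0.95, edgeR adjusted p = 0.177) and by DESeq2 (1.01, adjusted p = 0.108).

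*Dab2* had 16, 19 and 10 counts in EpiSCs (2.14, 2.57 and 1.65 TPM) and 112 and 61 in BV+SC+ cells (3.96 and 1.72 TPM). The groups overlap, and edgeR put the difference at 0.03 on the log2 scale, with a standard error of 0.456 and an adjusted p of 0.954. Its sign rests on the BV+SC+ replicates, at -0.61 without replicate 1 and 0.48 without replicate 2, and it was -0.11 without EpiSC replicate 3. The pooled CPM ratio was 0.992 with a 95% counting interval from 0.711 to 1.41. TPM and CPM part here because RSEM gave *Dab2* a mean effective length of 3235 bases in BV+SC+ cells and 4388 in EpiSCs, which depends on the transcripts it assigned reads to.

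*Sox7*, *Foxa3* and *Ttr* had counts in BV+SC+ cells and none in EpiSCs. *Sox7* had 5 and 17 counts (0.18 and 0.52 TPM), *Foxa3* had 2 and 12 (0.12 and 0.67 TPM), and *Ttr* had 0 and 19 (0 and 1.82 TPM). Their mean CPM in BV+SC+ cells was 0.639, 0.399 and 0.525, all under the mean of 1.07 CPM that 3 counts make in an EpiSC library. A single EpiSC library could therefore miss these levels, and no fold is given. Pooled over the libraries of each group, the 95% counting interval of the CPM ratio began at 1.41 for *Sox7*, 1.20 for *Ttr* and 0.856 for *Foxa3*. These intervals leave out the spread between replicates, and all counts of *Ttr* came from replicate 2. *Foxa1* ran the other way, with 0, 3 and 2 counts in EpiSCs and 1 and 0 in BV+SC+ cells (mean CPM 0.609 and 0.0338), and it is at the floor in both. Without the filter its unadjusted p was 0.0621 in edgeR, beside 0.0515 for *Ttr*. *Sox17* had a single count in each group, and *Foxa2* and *Afp* had 1 and 2 counts, both in BV+SC+ replicate 2. *Cer1* had no count in these 5 libraries.

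The BV+SC+ libraries differed from each other in these genes. Taking counts under 3 as 3, 16281 genes were over the floor in either library, of which 7.89% were over 2-fold higher and 12.8% over 2-fold lower in replicate 2. Of the 5 endoderm genes over the floor there, 3 were over 2-fold higher in replicate 2 (*Sox7*, *Foxa3* and *Ttr*) and 1 was over 2-fold lower (*Dab2*). A gene over the floor in only 1 library can differ only towards that library. *Foxa3* and *Ttr* passed only through replicate 2, so the filter set their direction. *Ttr*, a carrier of thyroid hormone and retinol-binding protein, was 5.17-fold higher in replicate 2 with its 0 counts in replicate 1 set at 3. Its 95% counting interval begins lower, at 3.81. *Foxa3* was 4.90 times as high on its counts as they are, 2 and 12, and less with the 2 taken as 3 (95% counting interval 1.09 to 45.1 on the former), and *Sox7* 2.78 times (0.983 to 9.62), an interval that includes no change. *Dab2* was 0.445 times as high (0.320 to 0.613) and *Hhex* 0.696 times (0.539 to 0.899).

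Some products of visceral endoderm stood with *Ttr*. Of 19 such products, secreted proteins and others, 16 were over the floor in either library, and 6 were over 2-fold higher in replicate 2 while 1, *Cited1*, was over 2-fold lower. *Trf*, which encodes transferrin, had 10.1 counts in replicate 1 and 134 in replicate 2 (1.53 and 11.9 TPM), 10.9 times the CPM with a 95% counting interval from 5.77 to 23.3. The other 5 were *Amn* with 14 and 87 counts, *Apoa1* with 1 and 31, *Apoa2* with 0 and 16, *Apoc2* with 3 and 15 and *Fgb* with 1 and 14. Of these, *Apoa1*, *Apoa2*, *Apoc2* and *Fgb* passed the floor only through replicate 2, so the filter set their direction. In replicate 1, 11 of the 19 were at 3 counts or fewer, and in replicate 2 only 3 were. From the gut and organ list, *Alb*, which encodes albumin, had 2 and 55 counts (0.12 and 2.85 TPM), and from the regulators the liver factor *Hnf4a* had 4 and 20 counts, 4.08 times the CPM with an interval from 1.37 to 16.4. *Afp*, the fetal counterpart of albumin, had 0 and 2 counts.

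**Figure D2:**
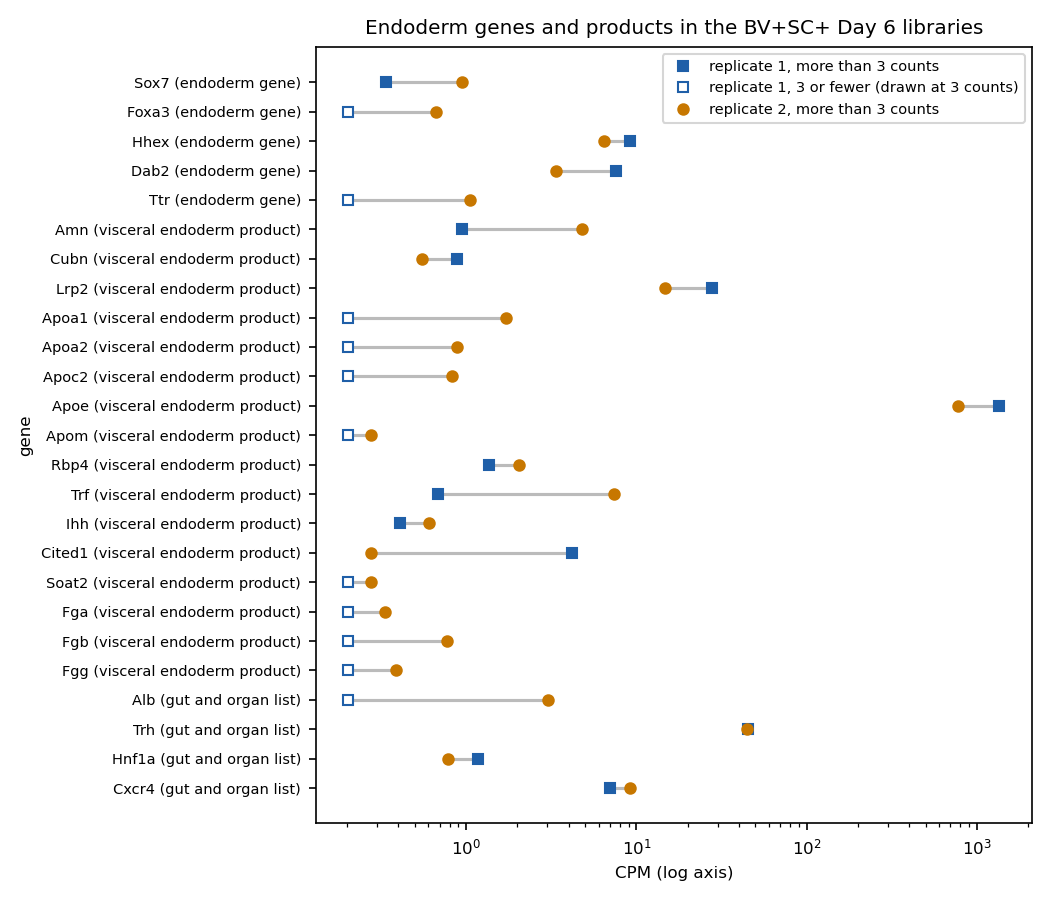
CPM on a log axis in the BV+SC+ Day 6 libraries, replicate 1 as squares and replicate 2 as circles, for each endoderm gene, visceral endoderm product and gut or organ gene with more than 3 counts in either library; open symbols have 3 counts or fewer and are drawn at 3 counts. *Ttr*, *Apoa1*, *Apoa2*, *Trf* and *Alb* are higher in replicate 2, whereas *Hhex*, *Dab2* and *Apoe* are higher in replicate 1.

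Not every gene of these lists followed. *Apoe* dominated the visceral endoderm products, with 3696 and 2192 of their summed 3717 and 2234 TPM. In replicate 2 it was 0.573 times as high by CPM (95% counting interval 0.560 to 0.585), and *Lrp2* 0.527 times (0.449 to 0.616). Of 12 parietal endoderm genes none was over 2-fold higher in replicate 2 and 3 were lower (*Lama1*, *Col4a1* and *Col4a2*). *Pecam1*, which germ cells also express, was the most abundant endothelial marker in both libraries, at 115 and 144 TPM. The endothelial markers *Emcn* and *Erg* were at 0 in both libraries, and *Kdr* had 0 and 7 counts, while *Tek* had 6 and 300 counts. Among genes of the anterior visceral endoderm, *Otx2* had 49 and 801 counts and *Lhx1* 20 and 157, whereas *Dkk1* had 59 and 5, *Lefty1* 2266 and 849 and *Sfrp1* 1601 and 678. Germ cell markers summed to 1796 and 1864 TPM, and 1 of 7, *Nanos3*, was over 2-fold apart. Primed epiblast markers summed to 1887 and 1988 TPM, and 3 of 6 were over 2-fold higher in replicate 2 (*Fgf5*, *Dnmt3b* and *Pou3f1*). Trophoblast markers summed to 218 and 79.7 TPM, and 6 of 11 over the floor were over 2-fold lower in replicate 2 while 1, *Tead3*, was higher. Fibroblast markers summed to 4.25 and 5.55 TPM, with *Col1a2* the most abundant and *Dcn* at 0 in both. Of 5 over the floor, *Col1a1* (18 and 110 counts) and *Postn* (0 and 28) were over 2-fold higher in replicate 2 and *Pdgfrb* (26 and 11) was lower. The part of the medium, of other cells in the sort or of either library in these differences was not tested.

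Over both libraries, the lists around the endoderm genes differed in how many of their genes were called between BV+SC+ cells and EpiSCs. The median log2 fold change over all genes tested was 0.05. Of the endoderm regulators 5 were tested and none was called (median -0.14); *Eomes* had 220 and 171 counts in BV+SC+ cells and 42, 31 and 23 in EpiSCs, a log2 fold change of 0.10 with an edgeR adjusted p of 0.803. Of the anterior visceral endoderm genes 1 of 3 tested was lower (*Lefty1*, median -1.70), and of the visceral endoderm products *Apoe* was higher and *Lrp2* lower among 3 tested (median -0.18). The log2 fold change of *Apoe* was 3.76, with a standard error of 0.207. Of the parietal endoderm genes 3 were higher and 3 lower among 9 tested (median -0.69), and of the gut and organ genes both that were tested were higher (*Trh* and *Cxcr4*, median 2.53). Trophoblast markers had 4 higher of 5 tested (median 1.78), endothelial markers 1 higher and 1 lower of 2 (median 3.44), and of the fibroblast markers the 1 tested was not called (-1.03). Primed epiblast markers had 1 higher and 4 lower of 6 (median -4.14), and all 7 germ cell markers were higher (median 8.10, or 7.55 with lower bounds). Those 7 include *Prdm1* and *Dppa3*, the genes of the sorted reporters.

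**Figure D3:**
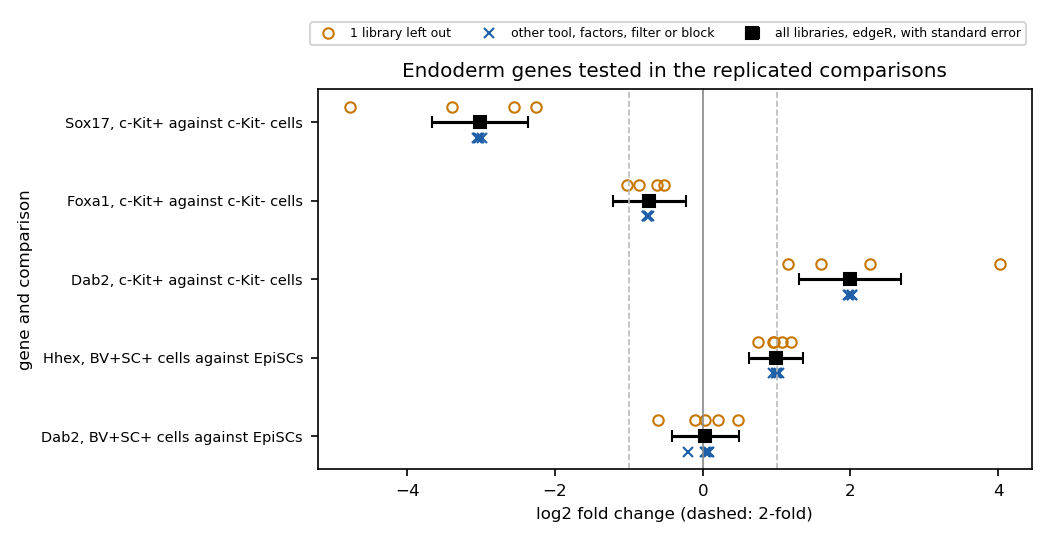
Log2 fold change on the horizontal axis for the 5 tests of an endoderm gene in a replicated comparison; black squares are edgeR values with all libraries and bars their standard error, open circles leave out 1 library, and crosses use another tool, scaling, filter or the replicate block. *Sox17* stays below -1 in every fit shown, between -4.77 and -2.25, whereas *Dab2* in the sorted cells moves between 1.15 and 4.02.

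With DOT1Li against without it, each condition is a single library, so there is no replicate check and no p-value. Changes are log2 ratios of TPM + 1, which understate the change of low genes, for genes over 1 TPM in either library. Of the endoderm genes 3 were over 1 TPM. Of these 1, *Dab2*, was past 2-fold higher with DOT1Li and none was past 2-fold lower, beside 6.33% higher and 3.45% lower of 14038 genes. Over all members that is 1 of 10. On CPM + 1 fewer genes were past 2-fold in both directions, with the numbers given under the processing.

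*Dab2* had 116 expected counts (16.5 TPM) with DOT1Li and 66 (6.51 TPM) without, a log2 change of 1.22. On CPM + 1 the change was 0.71 and no longer past 2-fold. The CPM ratio was 1.69 with an exact 95% counting interval from 1.24 to 2.32, while the TPM ratio was 2.54. The scales part because the effective length that RSEM estimated for *Dab2* was 2634 bases with DOT1Li and 4046 without. Whether *Dab2* was past 2-fold thus depends on the transcripts assigned, and the spread between replicates is not known here.

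*Sox17* had 13 counts with DOT1Li (3.61 TPM) and 10 without (3.38 TPM), a CPM ratio of 1.25 with a 95% counting interval from 0.505 to 3.17. *Hhex* had 18 counts (4.25 TPM) and 20 (5.01 TPM), a ratio of 0.863 with an interval from 0.430 to 1.72. Both intervals include no change. *Foxa1* had 2 counts with DOT1Li and 4 without (ratio 0.479, interval 0.0433 to 3.34), *Foxa2* and *Cer1* had 1 count each without DOT1Li, *Afp* had 1 count with it, and *Sox7*, *Foxa3* and *Ttr* had none in either library.

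Single genes of the endoderm regulators, and *Lefty1* of the anterior visceral endoderm list, differed in both directions with DOT1Li. *Nodal* had 59 counts with DOT1Li and 10 without (log2 change 2.03), *Lefty1* had 157 and 12 (3.44), and *Eomes* had 20 and 2 (1.35). These genes were also above the floor in EpiSCs. *Gata6* had 50 counts with DOT1Li and 133 without, so its level fell by 1.36 on the log2 scale, and *Gata4* had 1 and 9, where it fell by 1.08. In all, 2 of 8 endoderm regulators were past 2-fold higher and 2 lower (median -0.18, beside 0.01 over all genes). Of the anterior visceral endoderm genes 2 of 3 were higher (median 1.01), of the visceral endoderm products 2 of 7 (*Apoe* and *Amn*, median -0.32), of the gut and organ genes 1 of 3 (median 0.92), and of the parietal endoderm genes none of 10 in either direction (median -0.09). *Apoe* had 1043 counts with DOT1Li and 316 without, 3.16 times the CPM with an interval from 2.79 to 3.599.

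Markers of other cell types in the same libraries were as follows. Summed TPM of the trophoblast markers was 2562 with DOT1Li and 3214 without (*Peg10* the most abundant, 2 of 11 past 2-fold lower, median -0.27). That of the fibroblast markers was 292 and 297 (*Col1a1*, 0 of 8 past 2-fold, median 0.07), and that of the endothelial markers 45.2 and 31.5 (*Lmo2* and *Kdr* the most abundant, 1 of 5 higher, median -0.02). Primed epiblast markers summed to 697 and 168 TPM (*Pou5f1*, 1 of 5 higher, median 0.80), and germ cell markers to 326 and 173 TPM (*Kit*, 4 of 6 higher, median 1.39). *Elf5* was the only trophoblast marker at 0 without DOT1Li, and no endothelial marker was at 0 in either library. Their part in the level of *Dab2* was not tested.

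Across groups, as levels only, mean TPM of *Sox17* was 21.5 ± 7.44 (SD, n = 2) in *c-Kit*- cells, 3.61 with DOT1Li, 3.38 without, 3.11 ± 3.46 (SD, n = 2) in *c-Kit*+ cells, 0.317 ± 0.548 (SD, n = 3) in EpiSCs and 0.025 ± 0.0354 (SD, n = 2) in BV+SC+ cells. No difference between neighbours from separate experiments was tested. Mean TPM of *Hhex* was 8.34 ± 2.00 in BV+SC+ cells, 5.01 without DOT1Li, 4.38 ± 0.338 in EpiSCs, 4.25 with DOT1Li, 4.22 ± 0.891 in *c-Kit*- cells and, lowest, 2.58 ± 2.59 in *c-Kit*+ cells. Mean TPM of *Dab2* was 16.5 with DOT1Li, 6.51 without, 6.12 ± 2.06 in *c-Kit*+ cells, 2.84 ± 1.58 in BV+SC+ cells, 2.12 ± 0.460 in EpiSCs and 1.45 ± 1.301 in *c-Kit*- cells, the last 3 with overlapping libraries. The experiments differ in depth, and the sorted cells in gene list as well, so this order is a description.

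For the 3 members with at least 20 counts in 2 or more libraries, the genes with the most similar profile of log2(TPM + 1) over the 11 libraries were found among 10631 genes (10630 for *Sox17*) with a mean of at least 5 TPM. These correlations describe libraries that share experiment, depth and sort, and they were the highest of many. *Sox17* was closest to *Chmp4b* (r = 0.974), a membrane-remodelling subunit that was abundant in every library, at 135 to 301 TPM, and to *Cbfa2t3* (r = 0.964), a transcriptional corepressor. *Cbfa2t3* had 0 to 3 counts in EpiSCs, 16 and 13 in *c-Kit*+ cells, and a far higher 163 and 153 in *c-Kit*- cells. *Hhex* was closest to *2510002D24Rik* (r = 0.934) and *Rbbp8* (r = 0.925), and *Dab2* to *Zfp521* (r = 0.923) and *Dlx5* (r = 0.889). *Dlx5*, a homeobox gene, was at 0 in EpiSCs and in *c-Kit*- cells, at 10.6 and 7.06 TPM in *c-Kit*+ cells, and at 84.9 TPM with DOT1Li and 73.9 without.

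In GRCm38 the members that carry the results lie at separate places, *Sox17* (ENSMUSG00000025902) on chromosome 1, 4490931 to 4497354, *Hhex* (ENSMUSG00000024986) on chromosome 19, 37434810 to 37440731, *Dab2* (ENSMUSG00000022150) on chromosome 15, 6299788 to 6440712, and *Foxa1* (ENSMUSG00000035451) on chromosome 12, 57540628 to 57546916. All 10 members are annotated as protein-coding. *Dab2* shares 1.78% of its 75-base stretches with *Gm18888*, which lies on its opposite strand, and *Cer1* shares 0.0601% with transcripts of other genes. The other members apart from *Sox17* share none, so reads of *Foxa1*, *Foxa2* and *Foxa3* are not split among them by identical stretches of that length.

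RefSeq promoter windows of GRCm38.p6, 250 bases before to 50 after a start, were at hand for 7 of the 10 members in 10 windows, and not for *Sox17*, *Sox7* and *Ttr*. They were searched on both strands for TGTTTAC, the letters of forkhead factors, AGATAA, those of GATA factors, and ATTGTT, those of SOX factors, which do not overlap in any of these windows. Of all 32851 windows 3.65% hold the forkhead letters, 11.2% the GATA letters and 10.7% the SOX letters. Among the members, the forkhead letters were in the window of *Foxa1*, the GATA letters in 1 of 3 windows of *Foxa2* and 1 of 2 of *Dab2*, and the SOX letters in none. A match is only a description of the letters. The bases before the start are shown, outside annotated exons, for *Hhex* and *Dab2*, the members with counts in every library, and for *Foxa1*, with the forkhead letters in capitals as they read on the gene's strand. The stretch of *Foxa1* is chr12:57546122-57546361 on the minus strand, inside the GENCODE gene but between its exons. That of *Dab2* is chr15:6299539-6299787 and that of *Hhex* is chr19:37434657-37434809, both on the plus strand and directly upstream of the GENCODE gene.
Foxa1: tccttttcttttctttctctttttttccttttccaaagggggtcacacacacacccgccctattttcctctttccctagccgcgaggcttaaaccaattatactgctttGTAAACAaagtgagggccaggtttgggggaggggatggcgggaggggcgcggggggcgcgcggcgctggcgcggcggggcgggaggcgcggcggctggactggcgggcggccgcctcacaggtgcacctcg
Dab2: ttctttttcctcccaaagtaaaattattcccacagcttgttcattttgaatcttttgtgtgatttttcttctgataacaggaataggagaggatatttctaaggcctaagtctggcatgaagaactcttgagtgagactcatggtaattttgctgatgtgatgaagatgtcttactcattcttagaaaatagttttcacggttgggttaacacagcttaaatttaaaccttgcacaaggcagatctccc
Hhex: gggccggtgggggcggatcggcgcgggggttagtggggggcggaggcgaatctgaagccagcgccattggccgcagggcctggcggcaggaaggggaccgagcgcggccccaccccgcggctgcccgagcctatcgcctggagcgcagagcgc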

How the data were processed

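The deposited expected counts were estimated by the authors with RSEM after Bowtie2 alignment to a transcriptome, and are not normalized between libraries. The deposited TPM were computed by RSEM from the same counts and effective lengths. Library kits are given in more than 1 way: rRNA-depleted total RNA by labels outside the sorted cells, mRNA by the paper. For the tests, expected counts were rounded and filtered with filterByExpr, scaled by TMM and tested by quasi-likelihood in edgeR 4.0.16 (R 4.3.3), with Benjamini-Hochberg adjustment. The standard error is the size of the log2 fold change over the square root of F. Replicates are not stated to be separate cultures, so p measures the spread between samples only. Intervals of ratios are exact binomial intervals. A fold against a group without a count uses 3 counts in each library. Each pair of replicates within a group was compared by chi-square. Over its degrees of freedom it was 45.3 for the BV+SC+ libraries and 2.01 to 4.46 for the other pairs. The BV+SC+ libraries, labelled with different media, were still tested as replicates. No pair had identical counts. Members, and the lists beside them, were chosen with earlier results of these data known. The rule for named genes took the 4 genes of each list with the highest mean TPM, of which not all are named here. Others named were chosen after their values were seen. Symbols and coordinates are from GENCODE M21 of GRCm38, and 99.56% and 98.25% of the identifiers had a symbol. Promoters are from RefSeq. Python 3.11.15 with NumPy 2.4.6, pandas 2.3.3, SciPy 1.17.1 and Matplotlib 3.10.9 made the other values and plots, and DESeq2 1.42.0 was an alternative.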

Additional observations from a re-analysis of the deposited data

How the results depend on the processing

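Alternatives were DESeq2, scaling by RLE, at least 10 counts in every library, no low-count filter, an unadjusted p, the replicate number as a block and each library left out. For the DOT1Li libraries they were a pseudocount of 0.1 TPM, CPM + 1, TPM over 1 in both libraries and no filter. Of the values of single endoderm genes under an alternative, 51 were kept. With a test this means the same direction and call, by p and fold together. Without a test it means a log2 shift smaller than the distance from middle to end of the counting interval. That interval is wide at low counts. An unadjusted p leaves the fold change as in the main fit. For the DOT1Li ratios, TPM over 1 in both libraries and no filter do so too. Such values could not change direction. *Hhex* in BV+SC+ cells is among the 51 where it missed the p threshold, as it was not called in the main fit. A further 4 lost the call of a test, 1 gained it, 1 without a test fell below 2-fold (*Dab2* with DOT1Li, on CPM + 1) and 3 changed sign. *Sox17* in the sorted cells was called in each of the 9 alternatives that could fit it, from -4.77 to -2.25. Genes higher in *c-Kit*+ cells numbered 729 with DESeq2 and 706 with at least 10 counts in every library, against 1100. Endoderm genes higher there numbered 0 with DESeq2 and 0 to 1 with each library left out, and with at least 10 counts in every library none was tested, so 0 were higher and 0 lower. Genes higher in BV+SC+ cells numbered 1164 with at least 10 counts in every library, against 1983, and endoderm genes higher there numbered 0 to 1 with each library left out, the 1 being *Hhex* without BV+SC+ replicate 2. *Dab2* in BV+SC+ cells changed sign, at -0.20 with the replicate block and -0.61 to 0.48 with each library left out. With the block, 1126 genes were higher in *c-Kit*+ cells and 1872 in BV+SC+ cells. The names of the sorted libraries share dates across populations, and no label states that libraries of the same date are pairs. In the sorted cells, libraries of the same number deviated from their group means with a correlation of 0.128 over genes. With CPM + 1, 558 genes were higher with DOT1Li and 163 lower, and 0 endoderm genes were higher. Requiring TPM over 1 in both left 374 higher and 181 lower, fewer genes being tested. The cause was not tested for the others. A fit that leaves a group with 1 library assumes that it varies like the other group. Depth limits the EpiSC and sorted libraries most: 3 counts make 1.07 CPM in an EpiSC library on average, more than *Sox7*, *Foxa3* or *Ttr* had in BV+SC+ cells.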
